A study of Mus musculus with 12 samples.

Results

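Sycp2, Sycp3, Dmc1, Mlh3, Msh5, Rec8, Smc1b, Stag3 and Hormad1 were taken by name as genes of the synaptonemal complex, meiotic cohesin and meiotic recombination, and Dmc1 was set against the other 8. All 9 were found among the 23235 gene symbols measured. Poly(A) RNA came from oocytes of mouse ovaries at day 14 (labelled growing) and at day 21 (labelled germinal vesicle, GV), of wild-type (WT) or Mtr4-null genotype. MTR4 is the RNA helicase that delivers nuclear RNA to the RNA exosome, which degrades it. The labels list 3 libraries for each of the 4 groups, each made by Smart-seq2 from 10 oocytes with ERCC spike-in RNA. The sources used here do not give how Mtr4 was deleted, in which cells or which exons, and the labels do not say whether the libraries of a group came from different animals. The values are the authors' FPKM, fragment counts scaled to transcript length and library size, with 1 mean column per group. No value below therefore has an SD, an interval or a p-value, the depth of the libraries is unknown, and there is no replicate check on any difference.

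Meiotic recombination takes place in oocytes before birth. SPO11 cuts the chromosomes, the recombinase DMC1 helps pair each broken end with the homologous chromosome, and the MutS and MutL homologs MSH4, MSH5 and MLH3 help turn part of the joints into crossovers. Meanwhile cohesin rings built with REC8, SMC1B and STAG3 hold the sister chromatids, and SYCP2, SYCP3 and HORMAD1 form the chromosome axes on which the synaptonemal complex assembles. Oocytes of the ages studied here have passed that stage and rest in prophase arrest, where meiotic cohesin still has to keep the chromosomes together until the divisions.

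Dmc1 separated from the other members in 1 group. It stood at 2.31 FPKM in WT oocytes and 3.20 FPKM in Mtr4-null ones at day 14, and at 3.72 FPKM in WT oocytes and 61.1 FPKM in Mtr4-null ones at day 21. The last value is 16.4-fold above WT of the same age. In the same comparison Hormad1 was higher, at 4.35 against 1.09 FPKM, Smc1b was 2.98-fold lower, and no member differed 2-fold between genotypes at day 14. Differences are given as log2(FPKM + 1), which understates the fold of low values, and a gene is counted at 2-fold, a log2 difference of 1. That rule describes size and tests nothing.

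**Figure D1:**
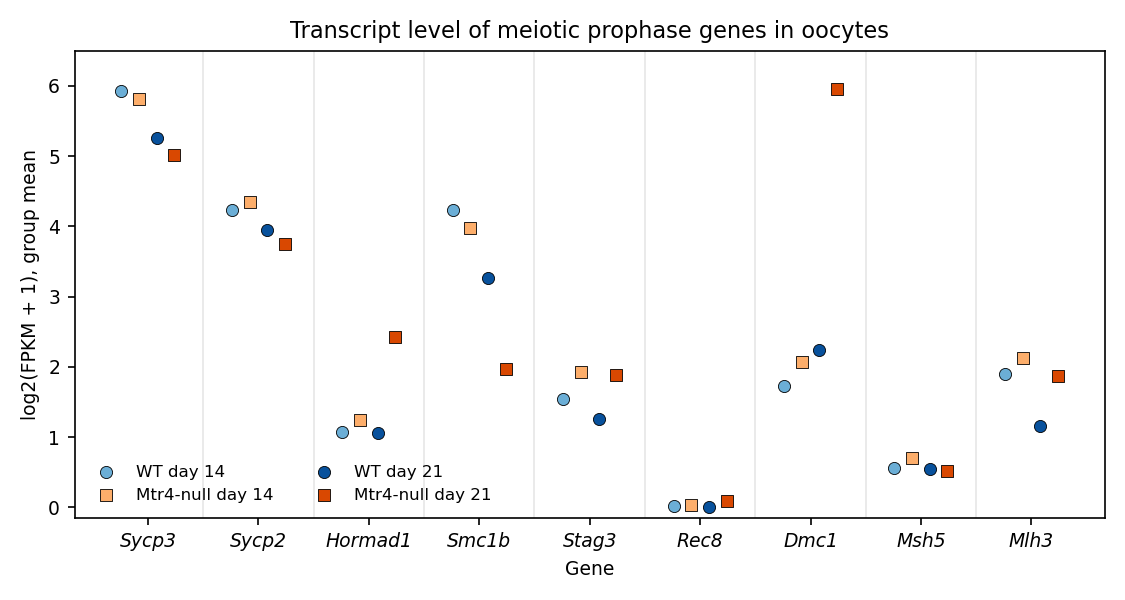
Level of each of the 9 genes, as log2(FPKM + 1), in the 4 groups; each point is the authors' mean of a group, so there are no error bars. Dmc1 lies between 2.31 and 3.72 FPKM in 3 groups and reaches 61.1 FPKM in Mtr4-null oocytes of day 21, whereas Sycp3, Sycp2 and Smc1b are the 3 most abundant members in the other groups.

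Several facts of the whole table bear on these values. Skiv2l2, the older symbol of the gene for MTR4, had 27.6 FPKM in WT oocytes of day 14 and 26.3 FPKM in those of day 21, against 1.57 and 3.86 FPKM without MTR4. All 12 oocyte markers were detected in every group and summed to between 11838 and 20583 FPKM. The 12 granulosa markers summed to between 25.8 and 38.4 FPKM, with 1 at 0 in Mtr4-null oocytes of day 21 and none at 0 elsewhere. Within that sum single markers went opposite ways at day 21, Cyp19a1 from 25.3 FPKM in WT down to 1.48 FPKM without MTR4 and Inha from 1.72 up to 10.9 FPKM. The 8 theca and stroma markers summed to at most 1.42 FPKM and the 4 blood markers to at most 0.0554 FPKM. The 4 endothelial markers (chiefly Pecam1) and the 5 male germ cell markers (chiefly Prm2) were lowest in Mtr4-null oocytes of day 21, at 2.75 and 3.81 FPKM, and highest in WT of day 21, at 24.4 and 27.5 FPKM. The part of these markers in the results was not tested. The last digits of the day 21 Mtr4-null column have the form of a mean of 2 libraries. Of its values from 10 to 100, 91.9% came out whole at 4 decimals (within 0.02 of the last one) when multiplied by 2, as did 89.8% to 91.6% of those of the other columns when multiplied by 3. The column in which Dmc1 was high may therefore rest on fewer libraries than the labels list. In bulk libraries, fewer transcripts per oocyte and fewer oocytes that carry a transcript cannot be told apart.

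Among the axis genes, Sycp3 was the most abundant member in 3 groups. It encodes a core component of the axis, and stood at 59.8 FPKM in WT oocytes and 55.2 FPKM in Mtr4-null ones at day 14 and at 37.4 and 31.4 FPKM at day 21. Sycp2, whose product binds SYCP3, stood at 17.8 and 19.3 FPKM at day 14 and at 14.5 and 12.4 FPKM at day 21. Both genes were thus lower at the older age in both genotypes, and the genotypes were at most 1.19-fold apart at each age. Their log2 differences between genotypes at day 21, -0.25 for Sycp3 and -0.21 for Sycp2, lay close to the median of all genes, -0.27. Under median-of-ratios scaling, which moves the median of all genes at day 21 to 0, both change sign, to 0.07 and 0.09. In the GENCODE M21 annotation Sycp3 lies inside Chpt1 on the opposite strand and shares 660 exonic bases with it. Smart-seq2 does not keep the strand, so reads from that stretch cannot be told apart. Chpt1, which encodes a choline phosphotransferase, was listed at 2.29 and 1.70 FPKM at day 14 and at 2.03 and 1.20 FPKM at day 21 in WT and Mtr4-null oocytes.

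Hormad1, which encodes the HORMA-domain protein that recruits break formation factors to unsynapsed axes, was low in 3 groups. It stood at 1.09 FPKM in WT of both ages, at 1.36 FPKM in Mtr4-null oocytes of day 14 and at 4.35 FPKM in those of day 21. The log2 difference between genotypes was 0.17 at day 14 and 1.36 at day 21. At day 21, 1896 of the 11913 genes that passed the filter on low values had a difference at least as high. Hormad2, its paralog, was lower instead, at 5.53 FPKM in WT oocytes and 2.50 FPKM in Mtr4-null oocytes of day 21, so the FPKM ratio of Hormad1 to Hormad2 stood at 0.196 in WT and 1.74 in Mtr4-null oocytes.

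Of the meiotic cohesin genes, Smc1b differed most. SMC1B is the meiotic form of the cohesin ATPase subunit SMC1, and its transcript stood at 17.8 FPKM in WT oocytes and 14.8 FPKM in Mtr4-null ones at day 14 and at 8.65 and 2.90 FPKM at day 21. It was thus lower at day 21 in both genotypes and lowest in Mtr4-null oocytes, with log2 differences between genotypes of -0.25 and -1.31. At day 21, 2057 of the 11913 genes had a difference at least as low. Smc1a, which encodes the somatic form, stood at 9.93 and 11.0 FPKM at day 14 and at 15.01 and 8.60 FPKM at day 21. The FPKM ratio of Smc1b to Smc1a therefore went from 1.79 at day 14 to 0.576 at day 21 in WT and from 1.34 to 0.337 in Mtr4-null oocytes.

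The transcripts of Stag3 and Rec8, the other meiotic cohesin genes among the members, were scarce. Rad21l, a cohesin gene that is not a member, stood above both, at 4.22 and 6.73 FPKM at day 14 and at 2.06 and 3.68 FPKM at day 21. Stag3, which encodes the meiotic STAG subunit, stood at 1.90 and 2.81 FPKM at day 14 and at 1.38 and 2.67 FPKM at day 21 in WT and Mtr4-null oocytes. Its value in Mtr4-null oocytes was 1.48-fold higher at day 14 and 1.93-fold higher at day 21. The summed FPKM of its somatic relatives Stag1 and Stag2 came to 13.0 and 16.4 at day 14 and 13.1 and 17.04 at day 21. Rec8, which encodes the meiotic kleisin that closes the ring, was the lowest member in every group, at 0.0150 and 0.0193 FPKM at day 14, listed at 0 in WT of day 21 and at 0.0668 FPKM in Mtr4-null oocytes of that age. Rec8 is flanked by Irf9, an interferon regulatory gene on the same strand, which was listed at 0.625 and 22.7 FPKM at day 14 and at 0.971 and 131 FPKM at day 21. Rec8 stayed near 0 beside it in all 4 groups.

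Among the recombination genes, Dmc1 encodes a RecA-type recombinase that acts in meiosis alone. Dmc1 was the fifth most abundant member in both groups of day 14, with 59.1% and 59.7% of all symbols below it. In Mtr4-null oocytes of day 21 it was the most abundant of the 9, with 92.6% of all symbols below it. Its share of the summed FPKM of the 9 genes was 2.23% in WT and 3.18% in Mtr4-null oocytes of day 14, 5.44% in WT of day 21 and 51.8% in Mtr4-null oocytes of day 21. The other 8 genes together stood at 101.5 and 97.5 FPKM at day 14 and at 64.7 and 56.8 FPKM at day 21.

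The log2 difference of Dmc1 between genotypes was 0.34 at day 14 and 3.72 at day 21. In the latter comparison 362 of the 11913 genes, Dmc1 included, had a difference at least as high. Those of the other 8 members ran from -1.31 to 1.36 with a median of 0.03, so Dmc1 lay 3.68 above that median. The difference between the 2 ages in the genotype effect was 3.37 for Dmc1, and 75 genes had one at least as high. On the deposited scale Dmc1 was also the only member with a higher level at day 21 than at day 14 in WT, 1.61-fold in FPKM. The log2 differences of the other 8 ran from -0.96 (Smc1b) to -0.0038 (Hormad1). Under quantile normalization Hormad1 and Msh5 lay just above 0 too, at 0.044 and 0.0041, against 0.55 for Dmc1.

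Of the crossover genes, Msh5 and Mlh3 were both low. Msh5, whose product forms a dimer with MSH4, stood at 0.480 and 0.633 FPKM at day 14 and at 0.455 and 0.428 FPKM at day 21 in WT and Mtr4-null oocytes. Its partner Msh4 stood at 23.9 and 24.6 FPKM at day 14 and at 18.8 and 12.8 FPKM at day 21. Mlh3, whose product is an endonuclease subunit that acts on crossover joints, stood at 2.73 and 3.37 FPKM at day 14 and at 1.23 and 2.65 FPKM at day 21. It was 1.23-fold higher in Mtr4-null oocytes at day 14 and 2.15-fold higher at day 21. On the log2(FPKM + 1) scale the day 21 difference stays below 2-fold, and with a pseudocount of 0.1 it is 1.04 and passes.

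**Figure D2:**
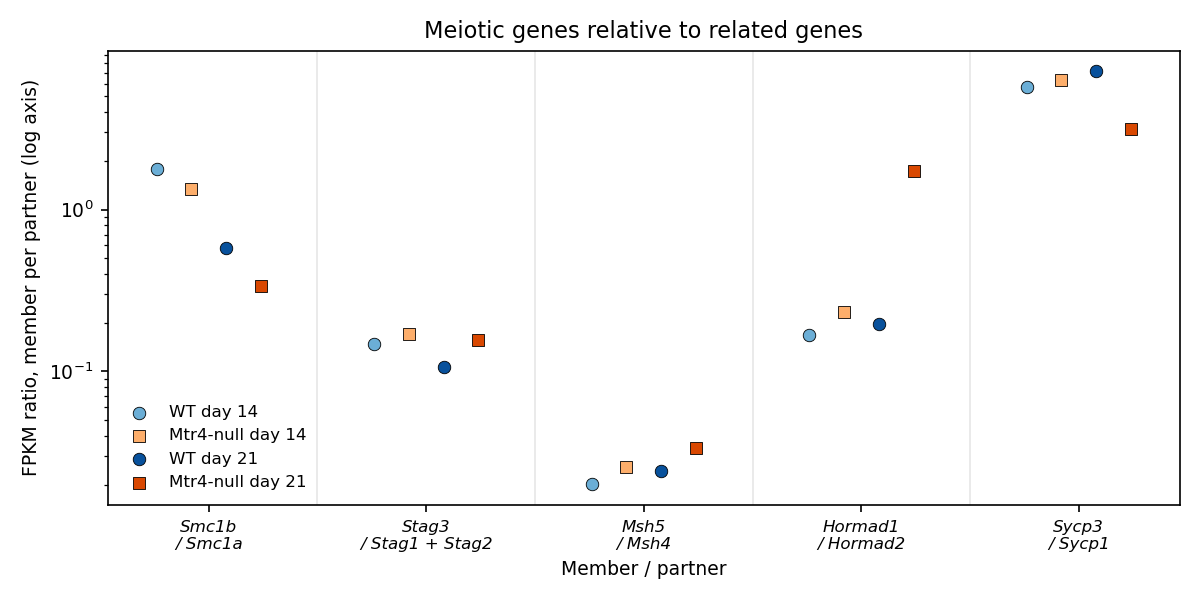
FPKM of 5 members divided by that of a related gene or of Stag1 and Stag2 summed, on a log axis; each point is 1 group. The Hormad1 to Hormad2 ratio is 1.74 in Mtr4-null oocytes of day 21 and at most 0.235 in the other groups, and the Smc1b to Smc1a ratio is lower at day 21 than at day 14 in both genotypes.

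The start regions of the 3 members that differed 2-fold on the log2(FPKM + 1) scale at day 21, and of the most abundant steady member, Sycp3, are shown because germline genes are known to be held silent in other cells through E2F-type and E-box elements near their starts. They are the bases before the RefSeq start site on GRCm38.p6, cut where GENCODE starts the gene earlier, at chr15:79605110-79605359 (minus strand), chr3:95559427-95559676 (plus strand), chr15:85131965-85132207 (minus strand) and chr10:88459337-88459568 (plus strand). Capitals mark matches on either strand to GCGGGA, the core of E2F-type sites, to the E-box CACGTG, and to CCTCAG, the core of the site bound by the meiotic entry factor STRA8.
Dmc1: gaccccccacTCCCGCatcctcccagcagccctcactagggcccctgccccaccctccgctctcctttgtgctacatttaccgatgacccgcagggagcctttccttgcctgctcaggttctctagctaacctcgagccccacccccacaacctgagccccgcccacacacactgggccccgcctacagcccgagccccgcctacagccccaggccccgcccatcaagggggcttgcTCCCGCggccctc
Hormad1: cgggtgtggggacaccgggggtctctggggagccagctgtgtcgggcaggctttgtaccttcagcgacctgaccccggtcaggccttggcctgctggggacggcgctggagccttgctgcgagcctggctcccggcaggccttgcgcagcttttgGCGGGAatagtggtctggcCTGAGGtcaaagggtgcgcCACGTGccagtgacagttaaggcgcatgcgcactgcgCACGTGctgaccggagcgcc
Smc1b: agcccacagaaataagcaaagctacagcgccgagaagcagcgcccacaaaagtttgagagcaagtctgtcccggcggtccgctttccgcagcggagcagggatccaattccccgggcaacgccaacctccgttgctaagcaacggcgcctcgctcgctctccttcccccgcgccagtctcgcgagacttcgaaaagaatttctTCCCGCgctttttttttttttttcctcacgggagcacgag
Sycp3: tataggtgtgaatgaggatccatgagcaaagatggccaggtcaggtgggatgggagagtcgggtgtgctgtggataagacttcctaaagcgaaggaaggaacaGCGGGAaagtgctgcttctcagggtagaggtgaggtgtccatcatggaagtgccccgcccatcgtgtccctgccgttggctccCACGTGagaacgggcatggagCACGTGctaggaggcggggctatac

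Dmc1 holds GCGGGA on the opposite strand, written TCCCGC, 240 and 13 bases before its start, and Smc1b holds it 47 bases before. Hormad1 has 4 matches, with GCGGGA at 95, CTGAGG at 76 and CACGTG at 57 and 20 bases, and Sycp3 has GCGGGA at 147 and CACGTG at 64 and 43 bases. No matches overlap in these 4 sequences. In the 250 bases before the RefSeq start, GCGGGA was found for 6 of the 9 members, CACGTG for 3 and CCTCAG for 2. The windows of these counts were not cut. GENCODE starts Msh5, Rec8 and Stag3 earlier, by 123, 129 and 269 bases, so the matches counted for these genes lie inside the GENCODE gene. Over the 27025 genes with such a window the shares were 16.9%, 6.05% and 22.2%. The sequences before Dmc1, Hormad1, Smc1b and Sycp3 are 68.8%, 68.0%, 57.6% and 57.3% G and C, against a median of 52.0% over all windows. Msh5 has 67.2% in its uncut window. Stag3, Sycp2, Rec8 and Mlh3 have 62.8%, 60.5%, 56% and 48.8%. Of the 4 genes shown, all of which hold GCGGGA, Dmc1 and Hormad1 were higher, Smc1b lower and Sycp3 steady at day 21. Whether the matches or the base content bear on the levels was not tested.

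Against all genes, the members held no 2-fold difference at day 14 and 3 at day 21. The filter kept the 11913 genes whose FPKM averaged 1 or more, 7 of the 9 members among them. Msh5 and Rec8 did not pass, and none of the 7 was below 1.09 FPKM in any group. At day 14, 0 of the 7 were higher and 0 lower, where 8.10% and 1.55% of all genes were. At day 21, 2 were higher (Dmc1 and Hormad1) and 1 lower (Smc1b), where 20.2% and 25.7% of all genes were. With a pseudocount of 0.1, 3 were higher, Mlh3 being added, where 22.8% of all genes were higher. At 1.5-fold the day 14 count stayed at 0 in both directions against 17.1% and 6.12% of all genes, and at day 21 it was 4 higher, with Mlh3 and Stag3 added, and 1 lower, against 27.0% and 39.3%. With so few members these shares are a description, and the number of members that differed at day 21 is close to the background. By size, Dmc1 lay farthest from 0 of the 9.

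**Figure D3:**
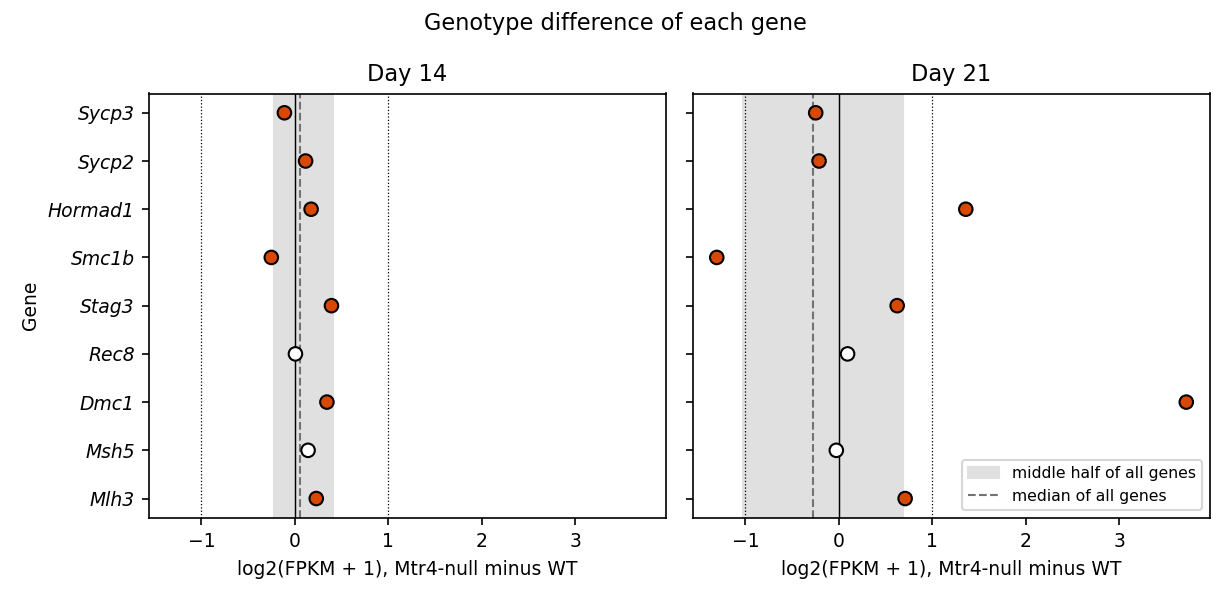
Log2(FPKM + 1) of Mtr4-null minus WT oocytes for each gene at day 14 (left) and day 21 (right), with the median (dashed) and middle 50% (grey) of the 11913 genes that passed the filter and dotted lines at 2-fold; open points are Msh5 and Rec8, which did not pass. All 9 lie within 0.39 of 0 at day 14, and Dmc1 lies at 3.72 at day 21.

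With age, most of these genes had a lower FPKM in WT oocytes, though Hormad1, Msh5 and Rec8 hardly differed. FPKM is relative to the library and the spike-in RNA was not used here, so the amount of transcript per oocyte was not measured. Smc1b, Mlh3 and Sycp3 were the farthest apart, 2.05-fold, 2.21-fold and 1.60-fold lower in FPKM at day 21, with log2 differences of -0.96, -0.74 and -0.66. None of the 7 reached 2-fold on the log2 scale in either direction, as did 2.02% higher and 3.32% lower of all genes. At 1.5-fold, 0 were higher and 3 lower, against 8.38% and 11.0%. With a pseudocount of 0.1 in place of 1, Smc1b and Mlh3 counted as 2-fold lower, as did 7.01% of all genes. In Mtr4-null oocytes, Dmc1 was 19.1-fold and Hormad1 3.20-fold higher at day 21 than at day 14 and Smc1b 5.09-fold lower. These 2 higher and 1 lower stand beside 9.08% and 18.6% of all genes, and at 1.5-fold 2 higher and 3 lower, with Sycp2 and Sycp3, stand beside 16.2% and 35.9%. The age comparisons share their columns with the genotype comparisons and are not separate evidence. The genotype difference was itself 2-fold larger at day 21 than at day 14 for Dmc1 and Hormad1 and 2-fold lower for Smc1b, where 13.6% and 22.4% of all genes were. For Smc1b this held on the deposited scale, with -1.05, and not under median-of-ratios scaling or quantile normalization, with -0.71 and -0.95.

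The wider meiotic pathway was described with 7 lists of 119 genes that are not members, of which 115 were found and 97 passed the filter. At day 14, 1 of the 97 was 2-fold higher and none lower, which is 1.03% and 0% beside 8.10% and 1.55% of all genes. At day 21, 9 were higher, 29 lower and 59 neither, which is 9.28% and 29.9% beside 20.2% and 25.7% of all genes, with a median log2 difference of -0.57 beside -0.27. With median-of-ratios scaling there were 12 higher and 20 lower genes, beside 24.3% and 18.1% of all genes.

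In the strand exchange list, the longest, 12 of 28 were lower and 1 higher at day 21, with a median of -0.84 (6 lower and 2 higher under median-of-ratios scaling). Of all genes, 25.7% were lower and 20.2% higher at day 21. With so few genes per list, these counts and those of the lists below are a description. Brca1 stood at 11.9 FPKM in WT oocytes and 1.07 FPKM in Mtr4-null oocytes, and Brca2, whose product loads recombinases such as DMC1 on DNA, at 18.8 and 3.91 FPKM. Rad54b, a motor protein gene of strand exchange, stood at 27.0 and 4.51 FPKM. Mnd1, whose product with HOP2 stimulates DMC1, stood at 25.2 and 5.53 FPKM. These 4 genes had the largest differences of the list, and 5 of its 28 genes lay above WT instead (7 under median-of-ratios scaling). Mcmdc2 (6030422M02Rik), the 1 higher gene, stood at 0.414 and 2.68 FPKM. At day 14 it stood at 0.868 and 1.28 FPKM, so it passed the filter only through the day 21 Mtr4-null column. It is nevertheless counted among the higher genes above. The others above WT at day 21 were less than 2-fold higher. Rad51ap1 stood at 11.5 and 21.9 FPKM and Rpa3, a subunit gene of the single-strand binding complex, at 194 and 248 FPKM. Fignl1 stood at 32.8 and 42.8 FPKM and Hsf2bp at 38.2 and 41.4 FPKM.

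In the crossover and mismatch repair list, 7 of 22 were lower and 2 higher at day 21, beside 25.7% and 20.2% of all genes. Under median-of-ratios scaling the counts of the list were the same. The nuclease gene Mus81 stood at 84.3 FPKM in WT oocytes and 18.2 FPKM in Mtr4-null oocytes, Msh6 at 45.4 and 13.4 FPKM and Tex11 at 7.34 and 1.59 FPKM, whereas the helicase gene Mcm8 stood at 10.2 and 39.0 FPKM. In the break formation and HORMA list, 2 of 9 were lower and 2 higher, close to those shares of all genes. Mei4, needed for break formation, stood at 10.7 and 3.16 FPKM and Mad2l2 at 49.7 and 15.4 FPKM. Trip13, whose product removes HORMAD proteins from synapsed axes, stood at 7.22 and 17.2 FPKM, and the checkpoint kinase gene Chek2 at 2.43 and 6.53 FPKM.

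Of 18 cohesin genes and regulators, 2 were lower and 2 higher at day 21, beside 25.7% and 20.2% of all genes. The separase gene Espl1 stood at 14.4 FPKM in WT oocytes and 5.81 FPKM in Mtr4-null oocytes and the cohesin loader gene Nipbl at 9.57 and 4.03 FPKM. Sgol2, which protects centromeric cohesin, stood at 18.9 and 493 FPKM, and Pds5a at 1.59 and 4.20 FPKM. Among the 97 genes of the 7 lists that passed the filter, Sgol2 was also the one 2-fold higher at day 14, at 20.1 and 81.2 FPKM. Under median-of-ratios scaling neither Espl1 nor Nipbl counted as lower.

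Of 5 synaptonemal complex genes other than the members, 1 was higher at day 21, Fkbp6, at 14.7 and 63.4 FPKM, and none lower. The shares of all genes, for this list and those that follow, were 20.2% higher and 25.7% lower. Syce2, of the central element, was the most abundant, at 541 and 284 FPKM. Of 6 genes for chromosome attachment and motion at the nuclear envelope, 4 were lower and none higher, with a median of -1.60. Lmna stood at 43.1 and 8.17 FPKM, Ccdc79 (TERB1) at 14.9 and 2.39 FPKM, Ccdc155 (KASH5) at 21.2 and 5.48 FPKM and Terf1 at 116 and 42.9 FPKM. Of 9 genes of meiotic entry and its regulators, 2 were lower, L3mbtl2 at 25.2 and 7.93 FPKM and Pcgf6 at 159.7 and 68.4 FPKM. The germ cell helicase gene Ddx4 was the higher one, at 49.0 and 133.6 FPKM. With median-of-ratios scaling the synaptonemal list held 2 higher genes, and the meiotic entry list 2 higher and 1 lower.

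**Figure D4:**
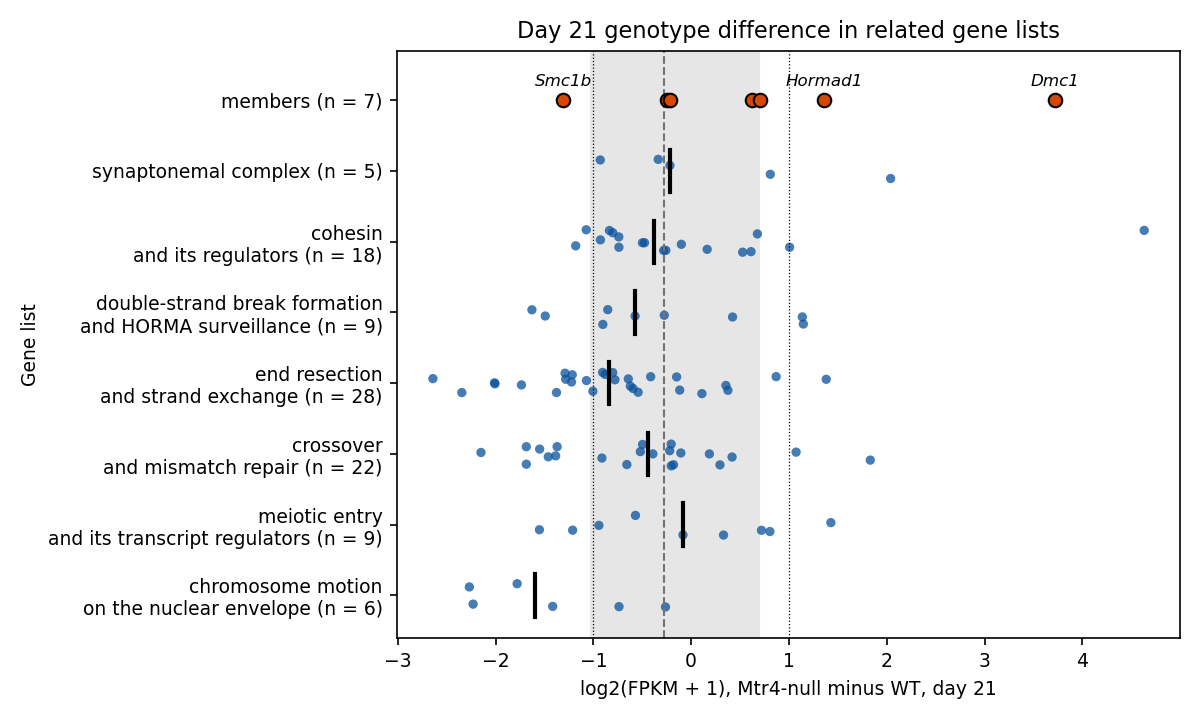
Log2(FPKM + 1) of Mtr4-null minus WT oocytes at day 21, 1 point per gene that passed the filter, for the members (top) and 7 lists of related genes, with list medians (black bars), the median and middle 50% of all genes (dashed, grey) and dotted lines at 2-fold. Dmc1, at 3.72, lies above every gene of these lists other than Sgol2, and the nuclear envelope list has the lowest median, -1.60.

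The nearest protein-coding genes on either side of Dmc1, Gm models left out, stood at low levels. Their log2 differences at day 21 were 0.73 and 0.53, against 3.72 for Dmc1, on a scale that understates the fold of values near 0. Ddx17, downstream on the same strand, stood at 2.90 FPKM in WT oocytes and 5.48 FPKM in Mtr4-null oocytes of day 21. Upstream, also on the same strand, 4933432B09Rik (Fam227a) stood at 0.0567 and 0.521 FPKM. The neighbours below were chosen in the same way. Golph3l, downstream of Hormad1 on its strand, stood at 30.7 and 19.3 FPKM, and Ctss, upstream of it, at 0.0921 FPKM and a listed 0. Smc1b starts next to Ribc2, which reads away from it and stood at 0.495 and 0.512 FPKM, while Fam118a, beyond its other end, stood at 42.4 and 30.1 FPKM. In GENCODE none of these 3 members shares exonic bases with another gene.

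The 9 genes differ widely in structure. Their longest coding transcripts in GENCODE have from 8 exons (Sycp3) to 44 exons (Sycp2) and from 1169 to 5717 bases. The transcript of Dmc1 has 14 exons and 2219 bases, that of Hormad1 16 exons and 1511 bases, and that of Smc1b 25 exons and 4047 bases. Dmc1 and Smc1b both lie on chromosome 15, on the minus strand, and differed in opposite directions at day 21.

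The 5 genes whose profile over the 4 groups lay closest to that of Dmc1, by the distance between centred log2(FPKM + 1) values, were Dact1, Snora43, Snora24, Gm7325 and Rdh16, with distances of 0.38, 0.42, 0.42, 0.58 and 0.59. Dact1, which encodes a Wnt signalling modulator, stood at 0.0231 and 0.167 FPKM at day 14 and at 0.0471 and 13.6 FPKM at day 21 in WT and Mtr4-null oocytes. Gm7325, now Mymx, the muscle fusion peptide gene, stood at 5.18, 6.49, 5.24 and 70.4 FPKM in the same order of groups, and the retinol dehydrogenase gene Rdh16 at 0.440, 0.441, 1.60 and 19.6 FPKM. The small nucleolar RNAs Snora43 and Snora24 were each listed at 0 in 3 groups, with 17.1 FPKM in the day 21 Mtr4-null column. These genes were chosen for a profile that peaks in that column, and the likeness rests on 4 means per gene. Dact1, Snora43, Snora24 and Rdh16 averaged under 1 FPKM over the other 3 groups and passed the filter through that column alone.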

How the data were processed

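Poly(A) RNA was measured in 12 libraries, of which the deposited table gives 1 mean per group as FPKM made by the authors; TopHat2 2.1.1, Cufflinks 2.2.1 and mm9 are named, per the submitters' processing notes, with no role stated. The sources used here do not say how the authors averaged, and values per library were not used here. From the 4 columns, log2(FPKM + 1) was taken, with a minimum mean FPKM of 1 and a count at 2-fold, in Python 3.11.15 with pandas 2.3.3. The arithmetic was tested on simulated data. Alternatives were a pseudocount of 0.1, no filter, a minimum of 5, median-of-ratios scaling, quantile normalization and 1.5-fold. Members, lists, motifs and tests were chosen with earlier results of these data known. Named genes are the members, the targeted gene, up to 4 genes per list that differed 2-fold between genotypes (or the most abundant, to make 2) and the 5 genes most like Dmc1. Partners set in ratio to members (Smc1a, Stag1, Stag2, Msh4, Hormad2, Sycp1), Rad21l and the strand exchange genes above WT were added after their values were seen. So were the granulosa markers named and neighbouring genes. Of the 119 listed genes, 115 were matched by symbol or by a RefSeq synonym of GRCm38.p6. Ankrd31, Rnf212, Shoc1 and Meiosin were not analysed here. Promoters are from RefSeq on GRCm38.p6 and gene models from GENCODE M21, not the authors' build. Gene positions, neighbours and overlaps were joined to the FPKM by symbol only, so the gene models behind the FPKM may differ from them.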

Additional observations from a re-analysis of the deposited data

How the results depend on the processing

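All 105 log2 differences of single members under another pseudocount or scaling, over 5 contrasts, kept their value within 1.5-fold (another filter cannot move them), and those of at least 2-fold kept their sign. Of the 63 counts and summary values under the alternatives, 54 stayed within 1.5 times and 9 did not. With a pseudocount of 0.1, 2 members rather than 0 were lower with age in WT. That pseudocount also gave 3 rather than 2 higher between genotypes at day 21, with Mlh3 added, which is within 1.5 times and belongs to the 54. A minimum mean FPKM of 5 keeps 4 members, without Hormad1, and left Dmc1 as the 1 higher member. This held in the day 21 genotype comparison, with age in Mtr4-null oocytes and in the change of the genotype difference. Of the 8189 genes kept, 17.7%, 8.49% and 12.7% were higher in these comparisons. Under median-of-ratios scaling and under quantile normalization 0 rather than 1 member had a 2-fold lower genotype difference at day 21 than at day 14. Of all genes, 12.4% and 17.2% did. At 1.5-fold, 4 rather than 2 were higher between genotypes at day 21, and 3 were lower with age in WT and 3 in Mtr4-null oocytes, rather than 0 and 1. No paired analysis was possible because the table holds 1 mean per group, and for the same reason no library could be left out. Whether 1 library carries the Dmc1 value at day 21 cannot be seen from a mean.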

Other observations

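The filter on low values removed 5 genes of the break formation list, of which 2 were 2-fold higher at day 21 and none lower. Of all 23235 symbols, 11.9% were higher, but these include the genes that passed the filter, so that share is not one of removed genes alone. The 5 genes were picked after their values were seen. Gm960, which encodes the TOPOVIBL partner of SPO11, stood at 0.0803 FPKM in WT oocytes and 2.40 FPKM in Mtr4-null oocytes of day 21, and Mei1, needed for break formation, at 0.318 and 1.73 FPKM. Gm960 was 2-fold higher at day 14 too, at 0.0676 and 1.35 FPKM, as were 4.30% of all 23235 symbols. The other 3 did not reach 2-fold: Prdm9 stood at 0.426 and 0.835 FPKM and Atm at 0.559 and 1.46 FPKM. Spo11, the gene of the nuclease itself, was at most 0.0199 FPKM in any group and listed at 0 in Mtr4-null oocytes of both ages. The meiotic entry gene Stra8 stood at 0.0220 and 0.198 FPKM.

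The non-canonical Polycomb complex with E2F6, MGA, MAX, L3MBTL2 and PCGF6 is known to hold germline genes silent in other cells. At day 21 its genes did not go one way. L3mbtl2 and Pcgf6 were 2-fold lower in Mtr4-null oocytes. Max stood at 38.7 FPKM in WT oocytes and 25.8 FPKM in Mtr4-null oocytes, Mga at 4.78 and 6.27 FPKM, E2f6 at 0.933 and 2.18 FPKM and Rnf2 at 104 and 98.3 FPKM.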
